A study of Mus musculus with 4 samples.

Results

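The genes examined were the ligands of the tumor necrosis factor (TNF) superfamily, their receptors, and the TRAF proteins and other adaptors that bind the receptors inside the cell, measured in the blood of aging mice with and without naringenin (Nar). They were chosen by gene symbol, with earlier results of these data already known. The table lists 51 such genes, of which 50 had values among the 17823 genes with values in all. These were 17 ligands, 23 receptors and 10 adaptors, and Tnfrsf11b, a soluble decoy receptor, was blank. Nar is a flavonoid. C57BL/6 mice, called adult in the sample labels and given as 12 months old in the methods, received Nar through the tail vein (Nar, 2 libraries) or the same volume of phosphate-buffered saline (Ctrl, 2 libraries) for 30 days. The libraries carry the numbers 1 and 3 in each group. No source says whether a library held 1 mouse or pooled mice, so p-values measure the spread between these libraries only.

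A TNF ligand is a trimer that clusters its receptors on a target cell. The clustered receptors bind TRAF proteins, which lead to the transcription factor NF-kB and to MAP kinases, or, in receptors with a death domain, bind Tradd and Fadd, which can lead to cell death. Here the receptors of TNF-α and lymphotoxin were classed with neutrophils and monocytes, and receptors such as BAFF-R, TACI and CD27 with B and T cells. The receptors of TNF-α are not limited to neutrophils and monocytes, since Tnfrsf1a is found on most cells and Tnfrsf1b on leukocytes more widely. For the comparisons below, 9 ligands and receptors were classed as myeloid, 18 as lymphoid and 13 as shared, from general knowledge of where they are expressed. These classes, too, were drawn up with earlier results of the same data known.

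Values are FPKM (fragments per kilobase of transcript normalized to the mapped fragments of the library), so they can be compared between genes per length, but they are shares of a library. Haemoglobin genes took 95.1% and 92.6% of the summed FPKM in Ctrl and 95.8% and 96.4% with Nar. In whole blood, fewer cells of a type and less RNA per cell cannot be told apart. Of the 50 members, 2 (Cd70 and Tnfrsf17) were listed at 0 throughout, 12 stayed under 0.1 FPKM in all 4 libraries, those at 0 included, and 14 reached a mean of 0.5 FPKM and were tested. Differences were tested with limma on log2(FPKM + 0.1) over 5339 genes, with Benjamini-Hochberg adjustment and a threshold of 0.05. Because of the added 0.1, changes of weakly expressed genes are understated on this scale. Over all tested genes the median log2 fold change (Nar minus Ctrl) was -1.07, and several changes below are also given relative to that median. Scaling libraries by the median of their gene ratios sets the typical gene level between the groups by construction (median log2 fold change -0.00), and it is used below as an alternative.

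In Ctrl blood the family was led by Ltb, Tnfrsf1a, Traf7 and Tnfrsf1b. With Nar, Ltb and Traf7 were the only 2 members above 1 FPKM in both libraries, where 8 members had been above 1 FPKM in both Ctrl libraries. All 14 tested members had a lower mean with Nar, and 6 passed the test: the receptors Ltbr, Tnfrsf1a, Tnfrsf1b, Tnfrsf21 and Fas and the kinase gene Ripk1. None rose. That is 42.9% of the tested members, beside 39.6% of all 5339 tested genes that fell by the same rule and 0.187% that rose. The members' median log2 fold change was -1.16, with 7 members below the median of all tested genes and 7 above it. As a whole the family thus stood close to the other genes of the libraries, and its members differed among themselves. Passing the minimum level bears on these counts, since 6 of the 14 reached it through Ctrl only, with a Nar mean under 0.5 FPKM (Ltbr, Ripk1, Tnfrsf21, Fas, Tnfrsf14 and Tnfsf12). Over the 48 members above 0 in any library, with no minimum, both Nar libraries lay below both Ctrl libraries in 30 (62.5%), beside 52.7% of such genes in all, and above both in 1 (Tnfrsf8), beside 2.78%. After median-of-ratios scaling these counts were 13 below and 10 above, beside 15.8% and 18.9% of all genes. Among the 14 tested members both Nar libraries were below both Ctrl libraries in 11 and above in 0, beside 78.3% and 1.27% of tested genes.

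The calls were sensitive to scaling and to single libraries. Without the minimum level 0 of 48 members passed in limma, although 14 had an unadjusted p under 0.05, beside 4978 of all 16382 genes. After median-of-ratios scaling 0 of 14 passed, beside 0.599% of all tested genes that fell. At an unadjusted p under 0.05 under that scaling were 3 of the 14, beside 797 of all 5339. With haemoglobin genes removed Ltbr and Tnfrsf1a passed, beside 5.01% of tested genes that fell and 0.263% that rose. Leaving out any 1 library, which leaves 1 library in a group, lost most calls, among all tested genes as among the members. In those fits the log2 change ranged from -2.77 to -2.38 for Ltbr and from -1.79 to -1.30 for Fas.

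**Figure D1:**
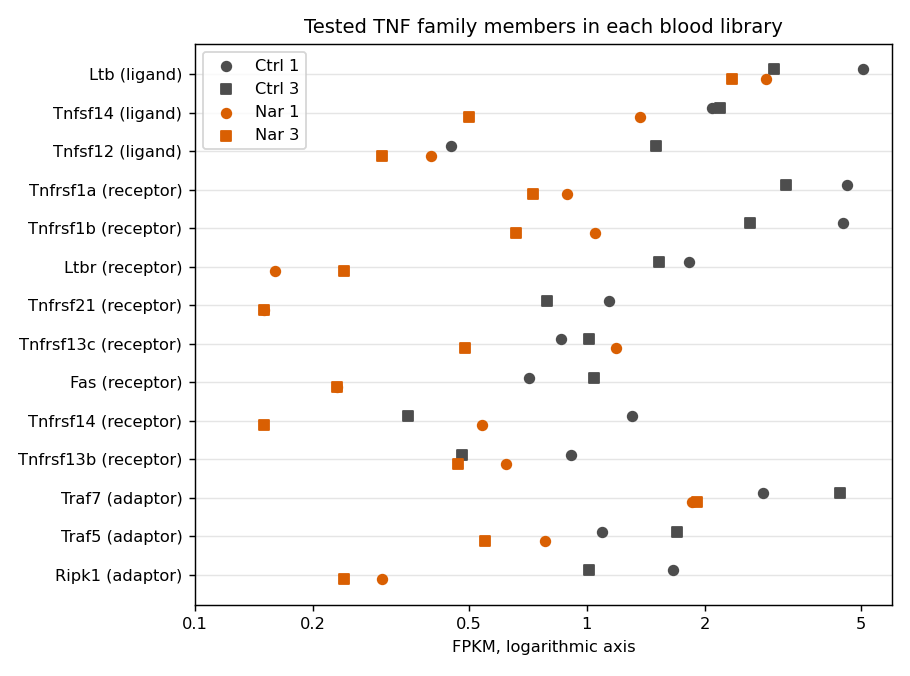
FPKM (logarithmic axis) of the 14 tested members in each of the 4 libraries, grouped as ligands, receptors and adaptors; each point is 1 library, and points of equal value lie on top of each other. Both Nar libraries lie to the left of both Ctrl libraries for 11 genes, and the groups overlap for Tnfrsf13b, Tnfrsf13c and Tnfrsf14.

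Tnf itself, which encodes TNF-α, was near the lower limit of the table. Its values were 0.24 and 0.16 FPKM in Ctrl 1 and 3 but 0.03 and 0 in Nar 1 and 3. Both Nar values were below both Ctrl values, but with a mean under 0.5 FPKM it was not tested, and an exact permutation test of 2 libraries against 2 cannot give a two-sided p below 0.33. On mouse chromosome 17 Tnf (chr17:35199367-35202007, GRCm38) stands between the lymphotoxin genes Ltb (chr17:35194507-35196305) and Lta (chr17:35203165-35205578). Of the 3 neighbours, Ltb stood far above Tnf and Lta. Ltb, a membrane ligand made by B and T cells, had the highest mean of the members in both groups, at 5.05 and 3.00 FPKM in Ctrl and 2.86 and 2.34 with Nar. In Ctrl 3 alone, Traf7 and Tnfrsf1a were above it. The log2 fold change of Ltb was -0.57 with a standard error of 0.44 (limma adjusted p = 0.274), which is 0.50 above the median of all tested genes, and after median-of-ratios scaling its direction turned to 0.56. The log2 fold change was -0.21 without Ctrl 1 and -0.94 without Ctrl 3. Lta overlapped between the groups, at 0.06 and 0.26 FPKM in Ctrl and 0.09 in both Nar libraries.

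A second group of neighbours lies on chromosome 6, where Cd27 (chr6:125232620-125237136), Ltbr (chr6:125306571-125313885) and Tnfrsf1a (chr6:125349723-125362483) follow one another. Ltbr encodes the receptor of membrane lymphotoxin and of LIGHT. It had 1.82 and 1.53 FPKM in Ctrl and 0.16 and 0.24 with Nar, and it fell by 2.57 on the log2 scale (standard error 0.38, limma adjusted p = 0.00488), the largest fall among the tested members. After median-of-ratios scaling its log2 change was -1.61. Tnfrsf1a, the death domain receptor of TNF-α found on most cells, had 4.61 and 3.22 FPKM in Ctrl against 0.89 and 0.73 with Nar. Its log2 fold change was -2.13 (standard error 0.38, limma adjusted p = 0.00857), or -1.05 relative to the median of all tested genes. The Nar libraries held values of Ltbr and Tnfrsf1a well below the Ctrl range. Cd27, a costimulatory receptor of T and memory B cells, was listed at 0.61 and 0.45 FPKM in Ctrl and 0.37 and 0.24 with Nar. The groups did not overlap, but Cd27 lay below the level tested.

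The promoters of these neighbours are shown because the 2 lymphotoxin partners, Ltb and its receptor Ltbr, had such unequal log2 fold changes while each had a TNF-α partner, Tnf or Tnfrsf1a, beside it. Each RefSeq window (GRCm38.p6) runs from 250 bases before the annotated start to 50 bases after it, on the gene's own strand. Capitals mark letters that match, on either strand, an NF-kB type motif (GGG, any pair of letters, then TTTCC), an ETS type motif (AGGAAGT) or a TATA box (TATAAA).
Tnf, chr17:35201958-35202257, minus strand: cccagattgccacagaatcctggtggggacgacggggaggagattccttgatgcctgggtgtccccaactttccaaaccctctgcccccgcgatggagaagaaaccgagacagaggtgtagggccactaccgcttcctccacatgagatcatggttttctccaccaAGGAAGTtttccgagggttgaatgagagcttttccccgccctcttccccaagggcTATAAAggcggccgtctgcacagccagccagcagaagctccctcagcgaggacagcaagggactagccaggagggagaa
Ltb, chr17:35194257-35194556, plus strand: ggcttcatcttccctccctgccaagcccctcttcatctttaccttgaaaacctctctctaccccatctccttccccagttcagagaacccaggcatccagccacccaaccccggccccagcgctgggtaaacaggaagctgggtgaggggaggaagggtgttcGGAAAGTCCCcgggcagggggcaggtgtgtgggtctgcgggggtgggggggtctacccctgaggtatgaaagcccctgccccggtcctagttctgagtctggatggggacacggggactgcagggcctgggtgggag
Ltbr, chr6:125313836-125314135, minus strand: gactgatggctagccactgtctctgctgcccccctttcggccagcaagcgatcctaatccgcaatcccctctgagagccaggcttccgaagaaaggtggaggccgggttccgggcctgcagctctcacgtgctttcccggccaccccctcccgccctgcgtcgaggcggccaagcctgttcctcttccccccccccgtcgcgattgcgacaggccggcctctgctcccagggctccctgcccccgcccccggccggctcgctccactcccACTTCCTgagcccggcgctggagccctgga
Tnfrsf1a, chr6:125349473-125349772, plus strand: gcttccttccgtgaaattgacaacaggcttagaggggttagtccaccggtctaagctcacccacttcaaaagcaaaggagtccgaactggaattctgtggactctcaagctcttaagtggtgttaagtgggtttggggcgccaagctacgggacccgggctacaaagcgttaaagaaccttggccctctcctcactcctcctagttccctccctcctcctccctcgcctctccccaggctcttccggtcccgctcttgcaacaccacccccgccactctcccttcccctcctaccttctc
The Tnf window held 1 TATA box and 1 ETS type match, the Ltb window 1 NF-kB type match on the other strand, and the Ltbr window 1 ETS type match on the other strand, which lies after the start. In the Tnfrsf1a window none of these letters were found. RefSeq windows were at hand for 40 members (45 windows). Of these, 11.1% held the NF-kB type motif (in Ltb, Tnfrsf25, Tnfrsf9, Traf2 and Traf3), against 1.63% of all 32851 windows. The ETS type motif was in 15.6% of member windows and 9.35% of all, and the TATA box in 13.3% and 13.6%. These matches are descriptions of sequence and not of binding.

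Among the other receptors, Tnfrsf1b, Tnfrsf21 and Fas fell. Tnfrsf1b, the receptor through which membrane-bound TNF-α signals to leukocytes, had 4.49 and 2.61 FPKM in Ctrl and 1.05 and 0.66 with Nar (log2 change of -0.84 relative to all tested genes, limma adjusted p = 0.0162). Tnfrsf21, which encodes the death domain receptor DR6, had 1.14 and 0.79 FPKM in Ctrl and 0.15 in both Nar libraries. It fell by 2.07 on the log2 scale (standard error 0.45, limma adjusted p = 0.0154). Fas, which triggers apoptosis when it meets Fas ligand, had 0.71 and 1.04 FPKM in Ctrl and 0.23 in both Nar libraries, a fall by 1.54 (standard error 0.42, limma adjusted p = 0.0267). Relative to the median of all tested genes the log2 change of Fas was -0.47. Tnfrsf21 and Fas had both reached the minimum level through Ctrl only. Tnfrsf1a, Tnfrsf21 and Fas were the death domain receptors tested, and the other 2 were below the level tested. Tnfrsf25 was listed at 0.14 and 0.22 FPKM in Ctrl and 0.10 and 0.01 with Nar, and Tnfrsf10b, the TRAIL receptor, at 0.18 and 0.04 in Ctrl and 0 and 0.04 with Nar, where the groups overlapped.

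The receptors that did not pass were the 2 B cell receptors of the BAFF system and Tnfrsf14. Tnfrsf13c, which encodes the BAFF receptor needed for B cell survival, had 0.86 and 1.01 FPKM in Ctrl and 1.19 and 0.49 with Nar, so the Nar libraries lay on either side of Ctrl. Its log2 fold change was -0.24 with a standard error of 0.43 (limma adjusted p = 0.628). Tnfrsf13b, which encodes TACI, had 0.91 and 0.48 FPKM in Ctrl and 0.62 and 0.47 with Nar, with a log2 fold change of -0.26 and a standard error of 0.42. Single libraries turned the direction of both, to 0.14 for Tnfrsf13b without Ctrl 1 and to 0.32 for Tnfrsf13c without Nar 3. With all libraries both lay above the median of all tested genes, by 0.83 and 0.82, and both turned positive after median-of-ratios scaling (0.80 and 0.74) and after removal of haemoglobin genes (0.25 and 0.21). Tnfrsf14, the receptor of LIGHT, had the largest standard error on the log2 scale among the tested members, with 1.30 and 0.35 FPKM in Ctrl and 0.54 and 0.15 with Nar. In both groups library 1 was higher than library 3, and the log2 fold change of -0.99 had a standard error of 0.65 (limma adjusted p = 0.206). It was -0.17 without Ctrl 1, -0.31 without Nar 3, -1.67 without Nar 1 and -1.81 without Ctrl 3.

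**Figure D2:**
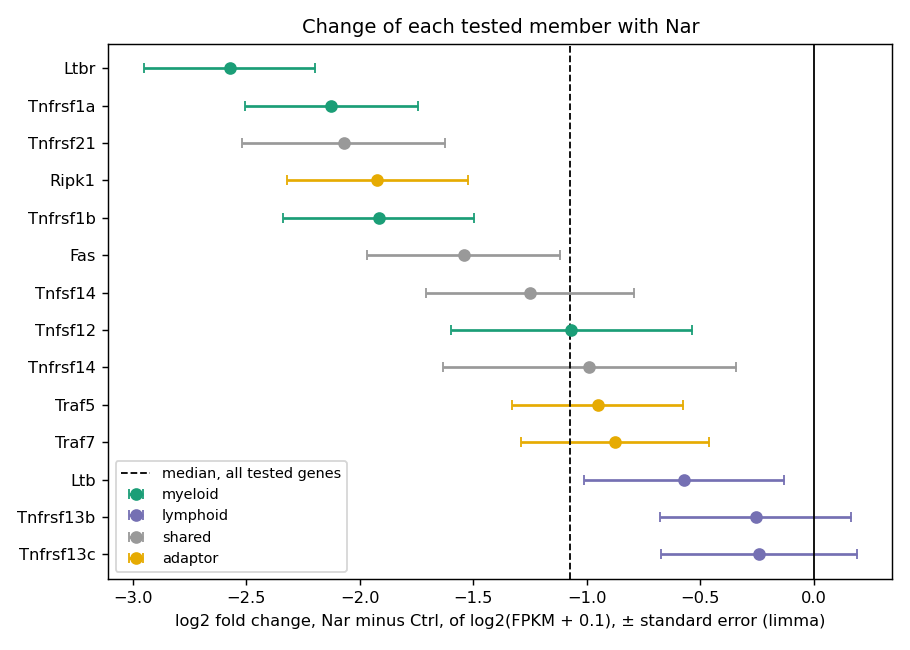
Log2 fold change (Nar minus Ctrl, on log2(FPKM + 0.1)) of the 14 tested members, with bars of 1 limma standard error from 2 libraries a group, coloured by class; the solid line marks 0 and the dashed line the median of all tested genes, -1.07. Ltbr and Tnfrsf1a lie farthest to the left and the 3 members classed as lymphoid farthest to the right, where Ltb, Tnfrsf13b and Tnfrsf13c turn positive after median-of-ratios scaling.

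Of the ligands, 3 were tested and 0 passed in limma, with 1 at an unadjusted p under 0.05. Tnfsf14, which encodes LIGHT, had 2.09 and 2.18 FPKM in Ctrl and 1.37 and 0.50 with Nar. The Ctrl libraries were nearly equal and the Nar libraries were not, and the log2 fold change was -1.25 with a standard error of 0.46 (limma adjusted p = 0.0542). It was -0.60 without Nar 3 and -1.90 without Nar 1. Tnfsf12, which encodes TWEAK, had 0.45 and 1.5 FPKM in Ctrl and 0.40 and 0.30 with Nar, so its difference rested on Ctrl 3. Its log2 fold change was -1.07, and -0.30 without Ctrl 3 (limma adjusted p = 0.115 with all libraries). Tnfsf12 and Tnfsf13 are neighbours on chromosome 11 and both overlap the RefSeq genes Tnfsf13os and Tnfsfm13, so their reads could be split.

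The remaining ligands lay below the level tested. Tnfsf13b, which encodes the B cell survival factor BAFF, was listed at 0.33 and 0.21 FPKM in Ctrl and 0.05 and 0 with Nar. Tnfsf13, which encodes APRIL, was listed at 0.45 and 0.30 FPKM in Ctrl and 0.10 in both Nar libraries. Fasl, the death ligand of cytotoxic T and NK cells, was listed at 0.28 and 0.44 FPKM in Ctrl and 0.09 and 0.07 with Nar. In these 3 genes both Nar libraries were below both Ctrl libraries, as in 52.7% of all genes. Cd40lg, the ligand by which T cells help B cells, overlapped at 0.10 and 0.11 FPKM in Ctrl and 0.10 and 0.07 with Nar, as did Tnfsf8 at 0.15 and 0.10 in Ctrl and 0.08 and 0.17 with Nar.

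Inside the cell, Ripk1, the kinase that joins TNF receptor signalling to survival or death, was the one adaptor gene that passed. It had 1.66 and 1.01 FPKM in Ctrl and 0.30 and 0.24 with Nar (log2 change of -0.85 relative to all tested genes, limma adjusted p = 0.014). The 2 TRAF genes tested did not pass. Traf7, the most distant relative among the TRAF proteins, had 2.81 and 4.43 FPKM in Ctrl and 1.85 and 1.91 with Nar, a log2 fold change of -0.87 with a standard error of 0.41 (limma adjusted p = 0.103), or -0.56 without Ctrl 3. Traf5 had 1.09 and 1.70 FPKM in Ctrl and 0.78 and 0.55 with Nar, a log2 fold change of -0.95 with a standard error of 0.38 (limma adjusted p = 0.0671). Both were slightly above the median of all tested genes, and both turned positive after median-of-ratios scaling (0.26 for Traf7 and 0.11 for Traf5).

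The other adaptors were below the level tested. Traf6, which also serves Toll-like and interleukin-1 receptors, stood out by its tight replicates, at 0.56 and 0.61 FPKM in Ctrl and 0.13 and 0.11 with Nar. Traf3, a brake on the alternative NF-kB route, was listed at 0.75 and 0.49 FPKM in Ctrl and 0.26 and 0.18 with Nar, and Traf2, which binds most receptors of the family, at 0.70 and 0.33 in Ctrl and 0.22 and 0.06 with Nar. Tradd was listed at 0.35 and 0.40 FPKM in Ctrl and 0.31 and 0.19 with Nar. Fadd was listed at 0.42 and 0.16 FPKM in Ctrl and 0.10 and 0.14 with Nar. Traf1, which is induced in activated lymphocytes, was the exception with overlapping groups, at 0.88 and 0.25 FPKM in Ctrl and 0.29 and 0.15 with Nar. In 9 of the 10 adaptor genes both Nar libraries lay below both Ctrl libraries, beside 52.7% of all genes. After median-of-ratios scaling 2 of the 10 were below and 2 above, beside 15.8% and 18.9% of all genes.

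**Figure D3:**
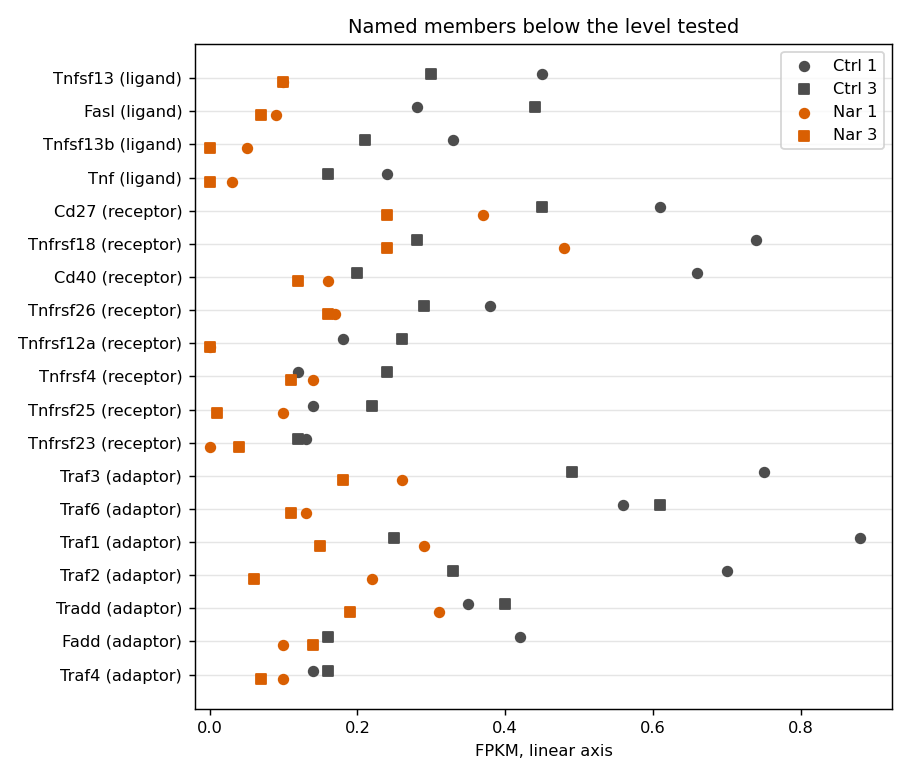
FPKM (linear axis) of 19 untested members (Tnf and those above 0.1 FPKM in both libraries of a group, with a mean under 0.5 FPKM), in each of the 4 libraries; each point is 1 library, and points of equal value lie on top of each other. Of those shown, Tnf, Tnfsf13b, Tnfrsf12a and Tnfrsf23 are listed at 0 in at least 1 Nar library.

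Other receptors were also below the level tested. Tnfrsf12a, the TWEAK receptor, was listed at 0.18 and 0.26 FPKM in Ctrl and at 0 in both Nar libraries. Cd40, the receptor of Cd40lg on B cells and monocytes, had 0.66 and 0.20 FPKM in Ctrl and 0.16 and 0.12 with Nar. Tnfrsf18, which encodes GITR of regulatory T cells, overlapped between the groups at 0.74 and 0.28 FPKM in Ctrl and 0.48 and 0.24 with Nar, and so did its neighbour Tnfrsf4, which encodes OX40, at 0.12 and 0.24 in Ctrl and 0.14 and 0.11 with Nar. In the decoy receptor cluster on chromosome 7, Tnfrsf26 was listed at 0.38 and 0.29 FPKM in Ctrl and 0.17 and 0.16 with Nar, and Tnfrsf23 at 0.13 and 0.12 in Ctrl and 0 and 0.04 with Nar. Tnfrsf22 of the same cluster overlapped between the groups, at 0.07 and 0.03 FPKM in Ctrl and 0.06 and 0.07 with Nar. Traf4 was listed at 0.14 and 0.16 FPKM in Ctrl and 0.10 and 0.07 with Nar. The members not named here were listed at 0.19 FPKM or less in every library.

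Myeloid and lymphoid members were then compared. Summed over the 9 myeloid ligands and receptors, FPKM was 12.5 and 9.58 in the Ctrl libraries but 2.70 and 2.06 in the Nar libraries. Summed over the 18 lymphoid ones, it came to 9.90 and 6.88 in Ctrl and 6.37 and 4.58 with Nar. Of this lymphoid sum Ltb alone held 5.05 and 3.00 FPKM in Ctrl and 2.86 and 2.34 with Nar. The myeloid sum was thus above the lymphoid sum in both Ctrl libraries, at 1.26 and 1.39 times, and below it in both Nar libraries, at 0.424 and 0.450 times, a ratio that no scaling of whole libraries can move. Tnfrsf1a, though classed as myeloid, is found on most cells and was the largest part of the myeloid sum in Ctrl. Without it (an alternative added after the data had been seen) the myeloid sum was below the lymphoid sum in Ctrl too, at 0.794 and 0.924 times, against 0.284 and 0.290 times with Nar. Tnfrsf1b, also not limited to myeloid cells, stayed in that sum, at 4.49 and 2.61 FPKM in Ctrl and 1.05 and 0.66 with Nar. Of the 4 tested myeloid members 3 fell (Ltbr, Tnfrsf1a and Tnfrsf1b) and Tnfsf12 did not pass, with a median log2 fold change of -2.02. That is 75.0%, beside 39.6% of all tested genes, and Ltbr and Tnfsf12 had reached the minimum level through Ctrl only. Of the 3 tested lymphoid members (Ltb, Tnfrsf13b and Tnfrsf13c) 0 passed in limma, also without adjustment, and their median was -0.26, or 0.74 after median-of-ratios scaling. The myeloid minus lymphoid difference of medians was -1.76 on the log2 scale (-1.66 without Tnfrsf1a), and it was -1.06 when all 9 myeloid and the 16 lymphoid members above 0 were taken with no minimum level. Among those, both Nar libraries lay below both Ctrl libraries in 8 of 9 myeloid members and in 6 of 16 lymphoid members, beside 52.7% of all genes. After median-of-ratios scaling 6 myeloid members were below and 0 above, and 1 lymphoid member was below and 7 above, beside 15.8% of all genes below and 18.9% above. The difference between the classes was not given a test, since the members are not replicates of a class.

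Cell type markers were read beside this split. Summed FPKM of 12 neutrophil marker genes was 1392 and 1132 in Ctrl and 87.9 and 132 with Nar, and all 10 that were tested fell, 2 of which had reached the minimum level through Ctrl only (median log2 fold change -3.47). After median-of-ratios scaling 5 of the 10 passed, with a median of -2.32, beside 0.599% of all tested genes. Of 9 tested monocyte markers 4 fell (44.4%, beside 39.6% of all tested genes), and the sum over the list of 10 was 87.5 and 97.8 in Ctrl and 28.9 and 10.7 with Nar. Ly6c2, Cd14 and F13a1 made up most of that sum in Ctrl. F13a1 did not pass, at 18.63 and 46.56 FPKM in Ctrl and 18.18 and 5.98 with Nar. After that scaling 2 of the 9 passed, with a median of -0.32. Of 9 tested B cell markers and 7 tested T cell markers 0 passed in limma (0 and 1 at an unadjusted p under 0.05), with sums of 43.7 and 31.0 FPKM in Ctrl against 31.7 and 32.1 with Nar for B cells, and 10.6 and 7.06 against 7.05 and 4.52 for T cells. All 16 of these had log2 fold changes above 0 after median-of-ratios scaling. No marker in these 4 lists was at 0 in all libraries. The part of these cells in the members' changes was not tested. Of NK cell markers 2 of 6 fell (33.3%), and of 8 platelet and 8 erythroid markers 0 passed in limma (1 and 0 at an unadjusted p under 0.05). The platelet marker sum was 712 in Ctrl 1 but 2250 in Ctrl 3, and 622 and 465 FPKM with Nar. After median-of-ratios scaling all 8 erythroid markers lay above 0 (median log2 fold change 1.63) and had an unadjusted p under 0.05, while 0 passed with adjustment.

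**Figure D4:**
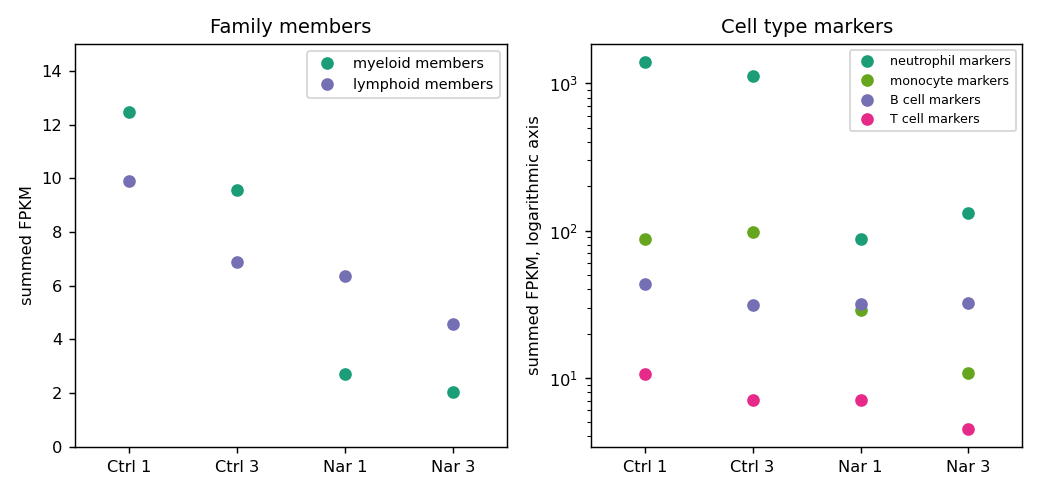
Summed FPKM in each library of the 9 myeloid and 18 lymphoid family members (left, linear axis from 0) and of the neutrophil, monocyte, B cell and T cell marker lists (right, logarithmic axis); each point is the sum over 1 list in 1 library. The myeloid sum is above the lymphoid sum in both Ctrl libraries and below it in both Nar libraries, but without Tnfrsf1a it is below in all 4, and the neutrophil marker sum is 1132 FPKM or more in Ctrl and 132 FPKM or less with Nar.

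Receptors and ligands were compared in the same way. Receptor genes summed to 19.3 and 13.3 FPKM in Ctrl and 6.43 and 4.30 with Nar, and ligand genes to 9.47 and 8.54 in Ctrl and 5.23 and 3.84 with Nar. The receptor sum was 2.04 and 1.56 times the ligand sum in Ctrl and 1.23 and 1.12 times with Nar. Of 8 tested receptors 5 fell (62.5%, beside 39.6% of all tested genes), 3 of which had reached the minimum level through Ctrl only (Ltbr, Tnfrsf21 and Fas). The receptors' median log2 fold change was -1.73, and the median of the 3 tested ligands was -1.07, a difference of -0.66. It was -0.38 without Ctrl 1 and -1.11 without Ctrl 3. Over the 22 receptors and 16 ligands above 0 the difference was -0.25. The sums also mix the classes, since Ltb made up 35.1% to 60.9% of the ligand sum while Tnfrsf1a and Tnfrsf1b led the receptors in Ctrl.

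Of 17 ligand and receptor pairs, 2 had both partners tested. Ltb exceeded its receptor Ltbr by 1.42 and 0.93 log2 units in Ctrl and by 3.51 and 2.84 with Nar, a change of the ratio of 2.00 on log2(FPKM + 0.1). Ltbr had reached the minimum level through Ctrl only, and its Nar values of 0.16 and 0.24 FPKM are close enough to the added 0.1 that the size of this change depends on it. For Tnfsf14 and its receptor Tnfrsf14 the ratio overlapped between the groups, with a mean log2 ratio of 1.49 in Ctrl and 1.23 with Nar. For Ltb with Ltbr the groups did not overlap, and the two-sided exact permutation p was 0.33, the smallest the design allows. The groups also did not overlap in other pairs, several of them with a partner at or near 0 FPKM, where the added 0.1 sets the ratio. For BAFF and its receptor no ratio is given, since Tnfsf13b was at 0.05 and 0 FPKM with Nar, where the added 0.1 would set the ratio.

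The proteins that act next to the receptors were taken as a list of 26 genes, all with values. Of 20 tested, 11 fell and 0 rose in limma (55.0%, beside 39.6% of all tested genes), with a median log2 fold change of -1.21. Of the 20, 8 had reached the minimum level through Ctrl only, among them 4 of the 11 that fell (Tnfaip3, Map3k5, Rnf31 and Tbk1). After median-of-ratios scaling 5 of the 20 lay above 0 and 0 passed, with 2 at an unadjusted p under 0.05, beside 797 of all 5339 tested genes. The lowest changes were those of Tnfaip3, the A20 enzyme that shuts off NF-kB signalling, Map3k5, a stress kinase that binds Traf2, and Cflar, which restrains caspase-8. Tnfaip3 had 2.10 and 1.66 FPKM in Ctrl and 0.34 and 0.33 with Nar, a fall by 2.18 on the log2 scale (limma adjusted p = 0.0057). Map3k5 had 1.12 and 1.11 FPKM in Ctrl and 0.16 and 0.33 with Nar (limma adjusted p = 0.0174), and Cflar had 2.15 and 4.21 in Ctrl and 1.12 and 0.97 with Nar (limma adjusted p = 0.0312). At the other end stood Tab3, which couples Traf6 to the kinase Map3k7, at 0.42 and 0.64 FPKM in Ctrl and 0.79 and 0.36 with Nar. Ikbkg, the regulatory subunit of the IkB kinase, and Cyld, a deubiquitinase of the receptor complex, came next, with log2 fold changes of -0.82 and -0.97, neither of which passed and both of which lay above 0 after median-of-ratios scaling.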

How the data were processed

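Blood RNA from 2 Nar and 2 Ctrl libraries was sequenced after oligo(dT) purification. Gene-level FPKM were calculated by the authors and deposited with 2 decimals. The methods state alignment to reference gene sequences with bowtie-2, while the submitters' processing notes name TopHat2, Cufflinks and GRCm38 without a role for each. The kit is not described as marking strand, and 20 of the members overlap another RefSeq gene. Without read numbers the depth is unknown and counting error cannot be stated. All 4 value columns belonged to a library of the series (0 others).

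Of 23136 genes listed, 5313 were blank. Differences on log2(FPKM + 0.1) were fitted with limma 3.58.1 (R 4.3.3, eBayes with trend) where a gene's mean FPKM reached 0.5, with Benjamini-Hochberg adjustment over all 5339. The steps were tested on simulated data that held no shift of whole libraries, so that test does not cover a shift like the one in these data. Summaries and plots used Python 3.11.15 and matplotlib 3.10.9. Every tested member is named, as are Tnf, members above 0.1 FPKM in both libraries of a group, and the 3 highest and 3 lowest genes of the receptor-proximal list. Other genes given with values, such as Lta, Cd40lg, Tnfsf8, Tnfrsf10b and Tnfrsf22, were chosen after their values were seen. The members, classes, lists and motifs were chosen with earlier results of these data known. All 51 gene IDs matched RefSeq (GRCm38.p6), the source of coordinates and promoters. Results were recomputed with a pseudocount of 1 or 0.01, without the minimum level, with a mean FPKM minimum of 1, TPM, haemoglobin genes (12) removed, median-of-ratios scaling, no trend, a replicate block and each library left out.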

Additional observations from a re-analysis of the deposited data

How the results depend on the processing

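Depth is unknown, which limits members near 0.01 FPKM. Causes of the changes below were not tested, except that fewer genes or libraries enter some fits. With no minimum level limma called 0 of 16382 genes (4978 with an unadjusted p under 0.05) and 0 of 48 members, with a members' median log2 fold change of -0.74, a myeloid minus lymphoid difference of -1.06 and a receptor minus ligand difference of -0.25. With a mean FPKM of at least 1, 1125 of 3361 genes and 2 of 6 members passed, and the receptor minus ligand difference was -1.11. A pseudocount of 1 gave a median of -0.63 and differences of -1.09 and -0.19. With haemoglobin genes removed, 281 genes and 2 members passed, the median was -0.67, and Tnfrsf13b (0.21) and Tnfrsf13c (0.25) reversed. Median-of-ratios scaling left 42 genes and 0 members (797 genes and 3 members with an unadjusted p under 0.05). It gave a median of -0.13 and reversed Ltb (0.56), Tnfrsf13b (0.74), Tnfrsf13c (0.80), Traf5 (0.11) and Traf7 (0.26). That scaling combined with a replicate block (added once the data had been seen) left 249 genes and 1 member (Ltbr) and reversed the same 5.

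Leaving out 1 library in turn, where the lone library is assumed to vary like the others, gave 0 to 259 genes, 0 to 1 members, medians of -1.60 to -0.90, myeloid minus lymphoid differences of -1.72 to -1.52 and receptor minus ligand differences of -1.11 to -0.38. Tnfrsf13b ranged from -0.66 to 0.14, reversing without Ctrl 1, and Tnfrsf13c from -0.81 to 0.32, reversing without Nar 3. Deviations of same-numbered libraries correlated at -0.153 across genes, so the numbers were not taken as pairs. With the replicate block 1815 genes and 7 members passed, Tnfsf14 being added (limma adjusted p = 0.0496). With the numbers crossed, also added then, 3233 genes and 9 members passed. Only the 6 members that had passed could lose a call, and the other 8 tested members had none to lose. All 6 lost it without the minimum level and after median-of-ratios scaling, and 4 of them with haemoglobin genes removed. The 6 kept it with either pseudocount, TPM, no trend and the replicate block.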

Other observations

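Genes related to the family by name or fold but outside its symbols were also read. Of 8 such genes, 6 had values and 3 were tested, and all 3 fell in limma (beside 39.6% of all tested genes), while after median-of-ratios scaling 0 passed, also without adjustment, beside 0.599% of all tested genes that fell. Relt, a TNF receptor family member of lymphoid tissue, had 1.71 and 1.38 FPKM in Ctrl and 0.36 and 0.73 with Nar, a fall by 1.41 on the log2 scale (limma adjusted p = 0.0286). Tnfaip8, a TNF-induced regulator of cell death, had 2.33 and 3.10 FPKM in Ctrl and 1.19 and 1.04 with Nar (limma adjusted p = 0.0353). Its relative Tnfaip8l2, a brake on immune cell activation, had 4.62 and 5.89 FPKM in Ctrl and 2.72 and 1.39 with Nar (limma adjusted p = 0.0444). Eda, Edaradd and Ngfr, which serve skin appendages and neurons, were listed at 0.05 FPKM or less in every library.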
